A study of Mus with 4 samples.

Results

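The renin-angiotensin system genes with the prorenin receptor (PRR) were followed in *Six2*-positive nephron progenitor cells (NPC) of the mouse kidney at embryonic day 15.5. The members were the genes of renin (*Ren1*), angiotensinogen (*Agt*), angiotensin converting enzyme (*Ace*), the AT1 receptors (*Agtr1a*, *Agtr1b*), the AT2 receptor (*Agtr2*), the Mas receptor (*Mas1*), aminopeptidase A (*Enpep*) and PRR itself (*Atp6ap2*). They were chosen by name as every probe, other than control spots, whose accession matched 1 of these 9 symbols, which gave 13 probes of 41174 on the array, each with 1 spot. *Ren1*, *Ace*, *Agtr1a* and *Mas1* had 2 probes and the other genes 1.

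*Mut* cells were Six2 CreEGFP+; PRR flox/flox and *WT* cells Six2 CreEGFP+; PRR+/+, so the controls carry the Cre and EGFP transgene as well and lack only the floxed allele. The *Six2* promoter drives Cre in the cap mesenchyme, and cells of both genotypes were sorted for EGFP and used as pools, 3 of each genotype. On arrays 1, 2 and 3 a *Mut* pool in Cy3 met the *WT* pool of the same number in Cy5. Array 4 compared *WT* pool 2 in Cy3 with *WT* pool 1 in Cy5, so that by the labels its ratio holds a dye and pool difference and none of genotype. Dyes were not exchanged on arrays 1 to 3, where genotype and dye cannot be told apart.

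In the system as it is known, renin cleaves angiotensinogen to angiotensin I, and angiotensin converting enzyme trims this to angiotensin II, which acts through the AT1 and AT2 receptors. Aminopeptidase A turns angiotensin II into angiotensin III, and Mas is the receptor of a shorter angiotensin peptide. PRR binds renin and prorenin, is cleaved by furin to a soluble form, and is an accessory subunit of the vacuolar H+-ATPase that also takes part in Wnt signalling. In the developing kidney renin is best known from the vessel wall and stroma, angiotensinogen from the early proximal tubule and the AT2 receptor from mesenchyme.

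The array as a whole set the frame for these probes. Between 45.1% and 51.1% of all probes were well above background in Cy3 and between 54.1% and 58.3% in Cy5, where "well above background" is the scanner program's flag for a spot clearly brighter than its background. All 12 markers of nephron progenitors on the list were well above background in all 3 *WT* channels of arrays 1 to 3, against 1 of 5 matched markers of proximal tubule and podocytes, 2 of 6 of endothelium and 11 of 12 of stroma and mural cells. *WT* pool 1 did not give the same picture on both of its arrays for erythroid genes. Their summed level (log2) was 10.69 to 10.84 in the *WT* channels of arrays 1 to 3 and 11.74 to 11.82 in the *Mut* channels, but 11.96 for *WT* pool 1 and 11.77 for *WT* pool 2 on array 4. The hemoglobin gene *Hba-a1* had a log2 *Mut*/*WT* of 1.17. So the *WT* pools on array 4 stood with the *Mut* pools in this respect, and the members' results are given beside their array 4 values. By the labels these are the pools of arrays 1 and 2, but *Hba-a1* in *WT* pool 1 was 1.44 higher on array 4 than on array 1, and whether array 4 held the same RNA could not be settled here. The array 4 ratios and the dye term below take the labels as given. Summed stroma markers were 13.46 to 13.51 in *WT*, 13.49 to 13.52 in *Mut* and 13.58 and 13.56 on array 4. This sum can hide opposite differences. *Acta2*, its brightest gene in *WT* (11.75), had a log2 *Mut*/*WT* of -1.24, and *Col1a1* and *Col3a1* had 0.89 and 0.78.

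Most of the system lay near or below the detection limit in these cells. Across the 13 probes and 8 channels, 32 of 104 readings were well above background. *Atp6ap2*, *Enpep* and *Agtr2* passed in all 8 channels, 6 probes passed in none (*Agt*, *Agtr1b*, both *Mas1* probes, and 1 probe each of *Ace* and *Agtr1a*), and 4 passed in 1 to 5. On arrays 1 to 3 a *Mut* channel had 3 or 4 member probes well above background and a *WT* channel had 4. The *Mut* pools were read in the dye with the lower share of detected probes over the whole array. In 7 probes the signal was above its local background by the program's weaker test in all 8 channels. No member spot was saturated or marked as an outlier.

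**Figure D1:**
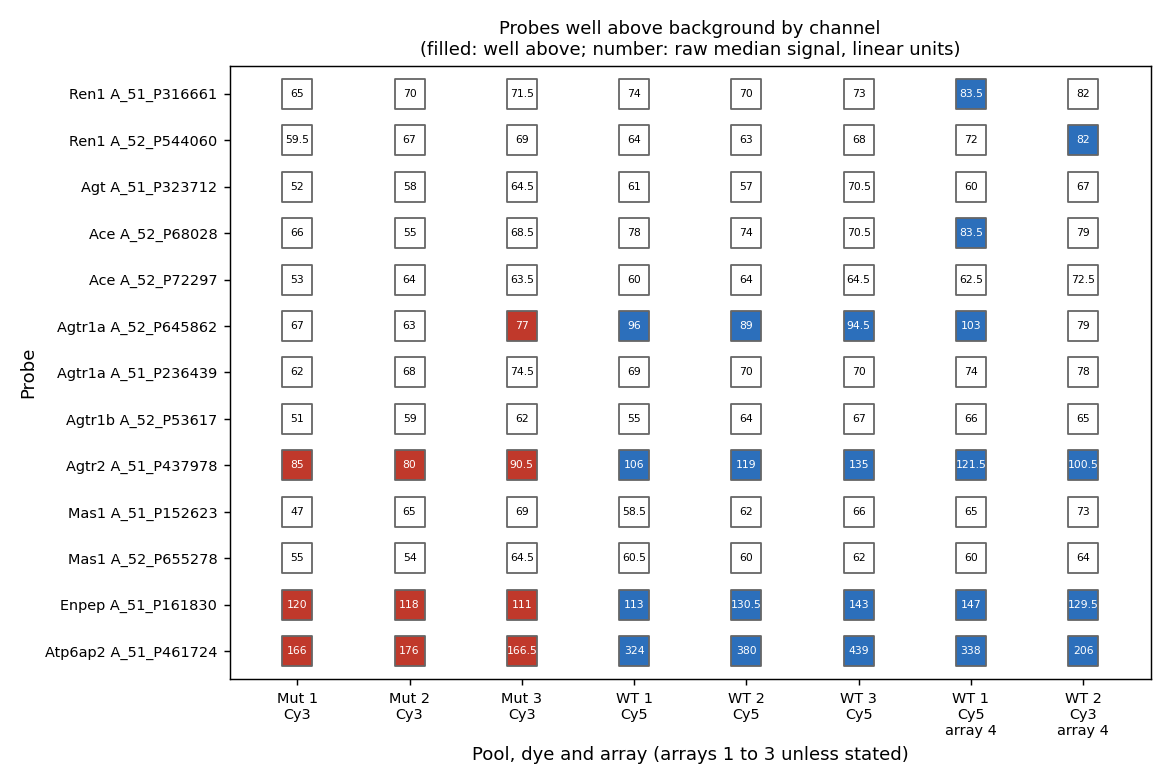
Each square is 1 of the 13 probes (rows) in 1 of the 8 channels (columns, by pool, dye and array), filled red (*Mut*) or blue (*WT*) where the spot was well above background and white where it was not, with the raw median signal in linear units inside. *Atp6ap2*, *Enpep* and *Agtr2* are filled in all 8 columns and 6 probes in none.

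No member met the threshold of differential expression, an adjusted P under 0.05 with a fold change over 1.5 in limma on the 3 *Mut*/*WT* ratios. The count was 0 of 13 probes, beside 827 of 41166 probes tested over the array (2.01%), of which 227 were higher (0.551%) and 600 lower (1.46%) in *Mut*. At an unadjusted P under 0.05 with the same fold the members still counted 0, against 831 of all probes. With the ratios that the scanner program deposited, in place of the ones normalized by loess, the array had 1489 higher and 1216 lower calls, and the members again 0. At an adjusted P under 0.05 alone 2 of 13 probes passed, *Enpep* higher and *Atp6ap2* lower in *Mut*. Over the array 12187 probes did so (29.6%), 5434 higher (13.2%) and 6753 lower (16.4%), so the members' share was not above the background. The labels call the samples pools of sorted cells and say no more of their independence. P rests on the spread between these pools, which limma draws towards the spread of the other probes.

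**Figure D2:**
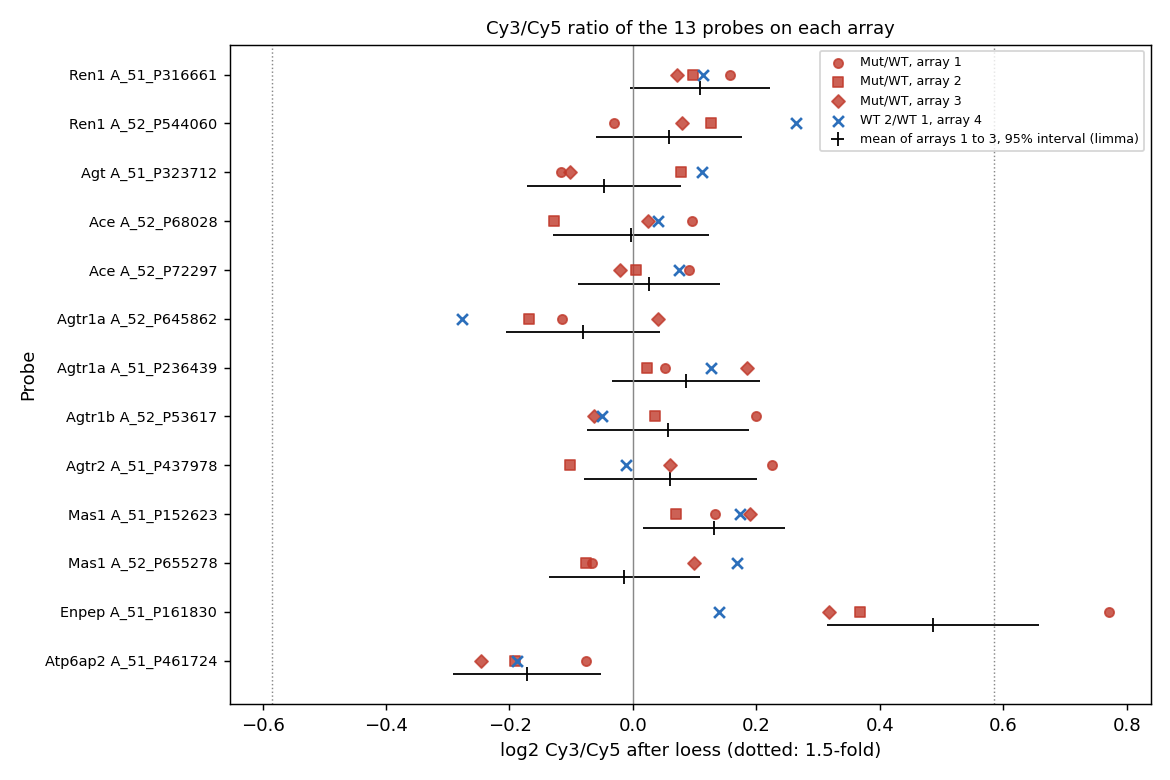
Log2 Cy3/Cy5 after loess is plotted for each of the 13 probes on arrays 1 to 3 (*Mut*/*WT*, red), with the mean and its 95% interval from limma in black, and on array 4 (*WT* pool 2 over *WT* pool 1, blue cross); dotted lines mark 1.5-fold. The 3 *Enpep* ratios lie to the right of its cross, while the *Atp6ap2* cross lies among its red points.

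*Atp6ap2*, the gene targeted in *Mut*, was read in every channel, and its difference between genotypes depended on the scaling. Its level (log2, normalized) was 7.998, 8.08 and 7.95 in *Mut* pools 1, 2 and 3 and 8.07, 8.27 and 8.20 in *WT* pools 1, 2 and 3. Each *Mut* pool was below the *WT* pool on its array, but *Mut* pool 2 reached *WT* pool 1, so the groups touched. The log2 *Mut*/*WT* ratio was -0.08, -0.19 and -0.25 on arrays 1, 2 and 3, with a mean of -0.17 (SE 0.0547, n = 3, adjusted P = 0.0351, limma), a 1.13-fold fall. With each array centred on its median in place of loess the mean was -0.61, with an adjusted P of 0.148 (limma).

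The ratio between *WT* channels on array 4 was as large. There *WT* pool 2 in Cy3 over *WT* pool 1 in Cy5 was -0.19, which holds dye and pool together. Within Cy5 the order was the reverse, with *WT* pool 2 on array 2 (8.27) above *WT* pool 1 on array 1 (8.07). *WT* pool 2 read 8.27 in Cy5 on array 2 and 7.90 in Cy3 on array 4, the lowest of all 8 readings, while *WT* pool 1 read 8.07 and 8.08 in Cy5 on both of its arrays. Between these readings, labelled as the same *WT* pool, Cy3 minus Cy5 was -0.37. Within Cy3 the *Mut* pools lay on average 0.11 above *WT* pool 2. When the array 4 ratio was used as a dye term for each probe, the *Mut*/*WT* difference was 0.02 (SE 0.109, 95% interval -0.22 to 0.26, adjusted P = 0.966, limma). The position of this probe relative to the floxed part of the gene was not looked up here, so its reading is no check of the deletion. The authors reported lower *PRR* mRNA in sorted *Mut* cells by quantitative RT-PCR, which is a separate measurement. In sorted pools, fewer cells with a transcript and less of it per cell cannot be told apart.

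**Figure D3:**
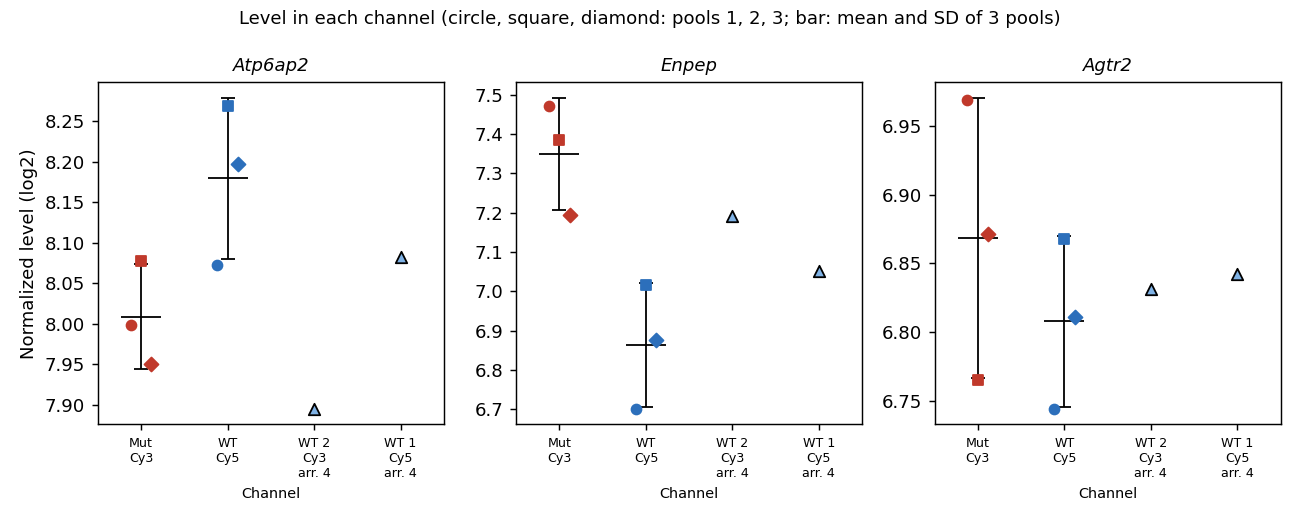
Normalized log2 levels of *Atp6ap2*, *Enpep* and *Agtr2* in the *Mut* (red) and *WT* (blue) channels of arrays 1 to 3, with mean and SD of 3 pools, and in both *WT* channels of array 4 (triangles). For *Atp6ap2* the triangle of *WT* pool 2 in Cy3 (7.90) is below every other point, and for *Enpep* it sits beside the lowest *Mut* point.

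*Enpep* gave the largest mean ratio of the 13 probes after loess. Aminopeptidase A, its product, removes the first residue of angiotensin II and is known from podocytes, proximal tubule and mural cells. Its level (log2) was 7.47, 7.39 and 7.19 in *Mut* pools 1, 2 and 3 and 6.70, 7.02 and 6.88 in *WT* pools 1, 2 and 3. All 3 *Mut* readings lay above all 3 *WT* readings of arrays 1 to 3. The log2 ratio was 0.77, 0.37 and 0.32, with a mean of 0.49 (SE 0.0784, n = 3, adjusted P = 0.000767, limma), which is 1.40-fold. Without array 1, which had the highest ratio, the mean was 0.34.

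The readings of array 4 narrowed that gap. *WT* pool 2 in Cy3 was at 7.19, beside *Mut* pool 3, and *WT* pool 1 in Cy5 was at 7.05, which is 0.35 above its own reading on array 1. Over all probes the shift of *WT* pool 1 between these arrays had an SD of 0.192. The ratio on array 4 was 0.14, less than any of the 3 *Mut*/*WT* ratios, and *Mut* pools lay 0.16 above *WT* pool 2 within Cy3. With the dye term the difference was 0.35 (SE 0.157, adjusted P = 0.337, limma), in the same direction and no longer past the test. The deposited ratios gave 1.08, more than 1.5 times the value above, with an adjusted P of 0.103.

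Markers of cells known to express *Enpep* did not move together. Of the 12 stroma and mural markers *Col1a1* (0.89), *Col3a1* (0.78) and *Pdgfrb* (0.60) were called higher in *Mut* and *Acta2* (-1.24) lower, as log2 *Mut*/*WT*. Over all probes, detected or not, 0.551% were called higher and 1.46% lower. By adjusted P alone 6 of the 12 rose and 4 fell (13.2% and 16.4% of all probes). The *WT* vs *WT* ratios of the 4 called genes were 0.43, 0.27, 0.18 and -0.51, of the same sign. With the dye term none of the 4 was called (limma). With that term 1 gene of the list was called, *Tagln*, lower in *Mut* (-0.64, limma), beside 323 of 41166 probes over the array. Its *Mut*/*WT* ratio was -0.21 and its *WT* vs *WT* ratio 0.44, of opposite sign. Of the 5 matched markers of proximal tubule and podocytes, *Nphs1*, *Podxl* and *Hnf4a* were well above background in no channel, *Aqp1* in 3 *WT* and 0 *Mut* channels of arrays 1 to 3 and *Slc34a1* in 2 and 0, with log2 *Mut*/*WT* of -0.16 and -0.01 for the last 2, neither past the test. Whether a part of the *Enpep* difference goes with other cells in the pools was not tested.

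*Agtr2*, the third member read in every channel, showed no difference that the test could tell from 0. The AT2 receptor is abundant in fetal mesenchyme and its gene, like *Atp6ap2*, is on the X chromosome. Its level (log2) was 6.97, 6.77 and 6.87 in *Mut* and 6.74, 6.87 and 6.81 in *WT* pools 1, 2 and 3, and 6.83 (*WT* pool 2) and 6.84 (*WT* pool 1) on array 4. The groups overlapped, and all 8 readings lay between 6.74 and 6.97. The log2 ratio was 0.22, -0.10 and 0.06, with a mean of 0.06 (SE 0.0641, adjusted P = 0.513, limma) and a 95% interval from -0.08 to 0.20. On array 4 it was -0.01. Without array 1 the mean was -0.02.

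The AT1 receptor genes, through which most known actions of angiotensin II on vessels run, were seen in part. Probe A_52_P645862 of *Agtr1a* was well above background in all 3 *WT* channels of arrays 1 to 3 and in 1 of 3 *Mut* channels (pool 3). On array 4, however, it passed in *WT* pool 1, read in Cy5, and not in *WT* pool 2, read in Cy3, so detection went with the dye there too. Its level (log2) was 6.54, 6.34 and 6.51 in *Mut* pools and 6.65, 6.51 and 6.47 in *WT* pools, with 6.47 in *WT* pool 2 and 6.75 in *WT* pool 1 on array 4.

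The genotypes overlapped for that probe, and the highest reading was that of *WT* pool 1 on array 4. Its log2 ratio was -0.12, -0.17 and 0.04 (mean -0.08, SE 0.057, adjusted P = 0.313, limma), and the ratio between *WT* pools was -0.28, larger in size than any of the 3. With the dye term the sign turned to 0.20. The other probe, A_51_P236439, passed in no channel and had a mean ratio of 0.09, beside 0.13 between the *WT* pools. *Agtr1b*, whose product is a close homolog in rodents, also passed in none, with ratios of 0.20, 0.04 and -0.06 and -0.05 between *WT* pools. For probes well above background in neither genotype, the log2 ratios here and below are those of near-background signals and are no measure of a fold change in transcript.

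Renin was read at the edge of detection. *Ren1* probe A_51_P316661 was well above background only in *WT* pool 1 on array 4, and A_52_P544060 only in *WT* pool 2 on array 4, so neither passed in any channel of arrays 1 to 3. For the former the level (log2) was 6.46, 6.50 and 6.37 in *Mut* pools, 6.30, 6.40 and 6.30 in *WT* pools, and 6.51 and 6.40 in *WT* pools 2 and 1 on array 4. *Mut* and *WT* ranges overlapped, and the highest reading was a *WT* pool in Cy3. Its log2 ratio was 0.16, 0.10 and 0.07, positive on all 3 arrays (mean 0.11, SE 0.0516, adjusted P = 0.138, limma), and 0.11 between the *WT* pools, so the dye term left -0.00. The second probe gave -0.03, 0.13 and 0.08, and 0.26 between the *WT* pools. *Ren2*, a near-identical copy that some mouse strains carry, has a probe of its own, and signal of these genes may be shared between the probes. The *Ren2* probe was well above background in no channel of arrays 1 to 3 and its mean ratio was 0.05.

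Angiotensinogen, the substrate of renin, was not detected. *Agt* was well above background in none of the 8 channels, and raw signals were 52, 58 and 64.5 in *Mut* (Cy3) and 61, 57 and 70.5 in *WT* (Cy5), over local backgrounds of 16, 16.5 and 18 and of 45, 50.5 and 49. Its log2 ratio of -0.12, 0.08 and -0.10 had no common sign (mean -0.05, adjusted P = 0.572, limma), and the *WT* pools gave 0.11.

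*Ace* was likewise at the limit. Probe A_52_P68028 passed in 1 channel, *WT* pool 1 on array 4, and its ratios of 0.10, -0.13 and 0.02 averaged -0.00 (SE 0.0575, adjusted P = 0.977, limma). Probe A_52_P72297 passed in none and averaged 0.03. The *WT* pools gave 0.04 and 0.07 for these probes. The 2 probes gave no difference between genotypes beyond the spread of the arrays.

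Neither *Mas1* probe was well above background in any channel. A_51_P152623 had a positive ratio on each array (0.13, 0.07 and 0.19), but the *WT* pools gave 0.17 on array 4, and its mean of 0.13 had an adjusted P of 0.0833 (limma). A_52_P655278 averaged -0.01, with 0.17 between the *WT* pools. At these signals a difference in the receptor's transcript was not detectable.

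For these dim probes the ratio depended on its scale. The deposited ratios, formed after the program's own background subtraction, averaged 0.74 and 0.78 for the *Ren1* probes, 1.19 for A_51_P236439 of *Agtr1a* and 0.94 for *Mas1* A_51_P152623, as log2 *Mut*/*WT*, with adjusted P from 0.0719 to 0.266 (limma). On the same scale the *WT* vs *WT* array gave -0.17 and 1.10 for *Ren1*, 0.57 for that *Agtr1a* probe and 1.20 for that *Mas1* probe. The ratio between *WT* pools was larger than the genotype ratio for *Ren1* A_52_P544060 and the *Mas1* probe, and smaller for the others. Some deposited ratios of dim probes were exactly 0, among them *Agt* on arrays 1 and 2.

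Around the members, 46 further genes of the pathway were read from lists, and 42 of them had a probe on the array. Each was represented by its brightest probe. By adjusted P alone 11 rose and 10 fell in *Mut*, and at 1.5-fold 0 were called higher and 1 lower. The shares over all probes of the array, detected or not, were the 13.2% and 16.4%, and the 0.551% and 1.46%, given above. The median log2 *Mut*/*WT* (and, after it, *WT* vs *WT*) was -0.04 and 0.04 for angiotensin peptidases and related receptors (20 of 22 genes matched), -0.07 and -0.02 for angiotensin receptor partners (6 of 7), 0.11 and -0.05 for PRR processing and signalling partners (7 of 8) and 0.13 and 0.04 for regulators of the renin gene (9 of 9), against -0.000916 and -0.00371 over all probes.

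Among angiotensin peptidases and related receptors no gene was called at its brightest probe, and by adjusted P alone 3 rose and 5 fell. When each gene was instead given the median of its probes, *Ctsd*, cathepsin D, named after its value was seen, was called lower (-0.59, adjusted P = 0.000217, limma). It has 2 probes, and the brightest gave -0.23 (adjusted P = 0.00579, limma, not called), with 0.09 between the *WT* pools. *Anpep*, the aminopeptidase that follows *Enpep* in the cascade, had a mean ratio of 0.51 (adjusted P = 4.05e-05, limma), beside 0.40 between the *WT* pools. *Thop1*, an oligopeptidase that cuts angiotensin I, fell by 0.38 on the log2 scale, with -0.21 between the *WT* pools. *Ctsa*, cathepsin A, fell by 0.26 at its brightest probe, while its other 2 probes gave -0.61 (called lower) and -0.09. The *WT* pools gave -0.17, -0.25 and -0.10 for these probes.

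**Figure D4:**
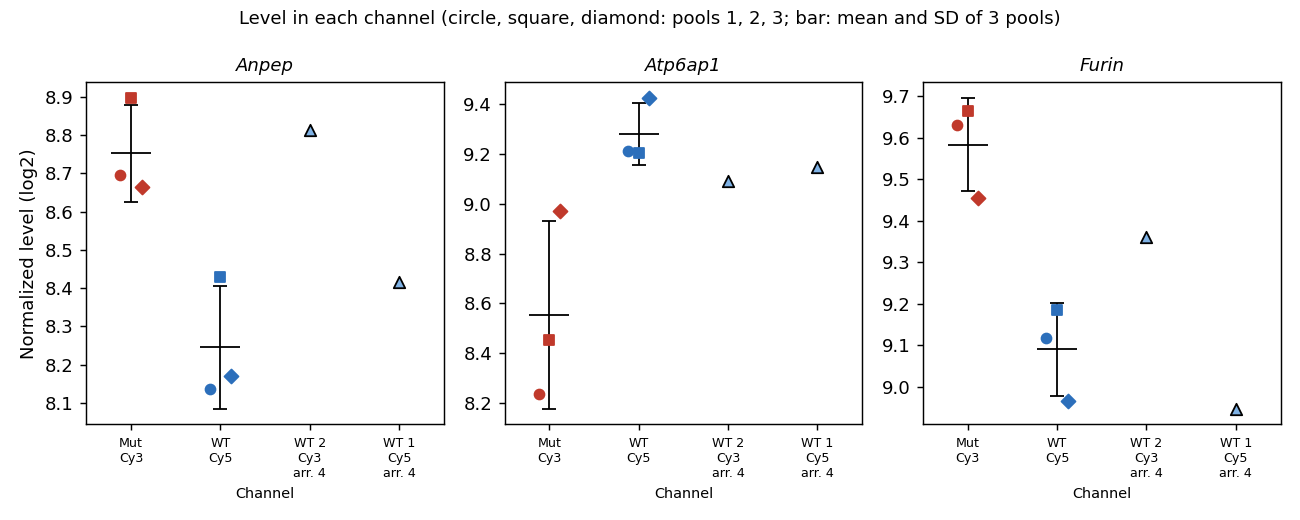
Normalized log2 levels of *Anpep*, *Atp6ap1* and *Furin* in the *Mut* (red) and *WT* (blue) channels of arrays 1 to 3, with mean and SD of 3 pools, and in both *WT* channels of array 4 (triangles). The *Anpep* triangle of *WT* pool 2 in Cy3 (8.81) lies among the *Mut* points, and both triangles of *Atp6ap1* (9.09 and 9.15) lie above every *Mut* point.

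Of the PRR partners *Atp6ap1*, the other accessory subunit of the vacuolar H+-ATPase, was called lower. Its level (log2) was 8.24, 8.45 and 8.97 in *Mut* and 9.21, 9.21 and 9.43 in *WT* pools 1, 2 and 3. The log2 ratio was -0.98, -0.75 and -0.46 (mean -0.73, SE 0.0807, adjusted P = 6.75e-05, limma), and -0.06 between the *WT* pools. On array 4 the *WT* pools read 9.09 and 9.15, so all 5 *WT* readings were above all 3 *Mut* readings, and within Cy3 the mean of the *Mut* pools minus *WT* pool 2 was -0.54. The size of the fall varied between arrays (SD 0.261), and with the dye term -0.67 did not pass the test (adjusted P = 0.0789, limma). In contrast to *Atp6ap2*, its ratio exceeded in size that between *WT* pools on each array.

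By adjusted P alone 3 partners rose and 3 fell, *Atp6ap1* included. In each partner named, *Atp6ap1* among them, the *WT* vs *WT* ratio had the same sign as the *Mut*/*WT* ratio. *Furin*, the protease that releases soluble PRR, had 0.49 (adjusted P = 4.23e-05, limma) against 0.41 between *WT* pools. *Lrp6*, a Wnt co-receptor, had -0.34 against -0.11. *Fzd8*, a Wnt receptor, was well above background in *WT* but not in *Mut* on arrays 1 to 3. On array 4 it passed in both *WT* channels, Cy3 and Cy5. Its log2 ratio was -0.30 (adjusted P = 0.00207, limma), with -0.18 between *WT* pools. With the dye term it was -0.12 (adjusted P = 0.692, limma), so no least fold between genotypes is given.

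**Figure D5:**
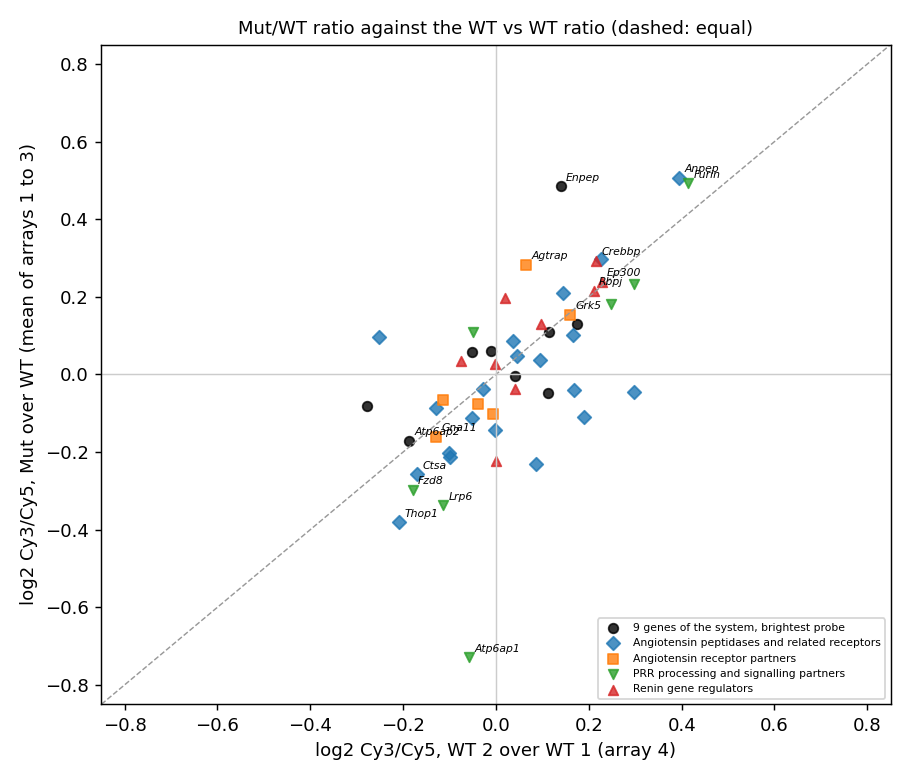
Each point is a gene by its brightest probe, with the log2 ratio of *WT* pool 2 over *WT* pool 1 on array 4 (x) against the mean log2 *Mut*/*WT* of arrays 1 to 3 (y), and the dashed line marks equal values. *Enpep* lies above the line and *Atp6ap1* below it, while *Anpep*, *Furin* and *Atp6ap2* lie near it.

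No partner of the angiotensin receptors and no regulator of the renin gene was called. *Agtrap*, whose product binds the AT1 receptor, had 0.28 at its brightest probe (adjusted P = 0.00191, limma), and its other 3 probes ranged from -0.04 to 0.07. The *WT* pools gave 0.06 for the brightest. *Gna11*, a G protein subunit downstream of AT1, had -0.16 (*WT* pools -0.13), with -0.02 at its other probe, and the receptor kinase gene *Grk5* 0.15 (*WT* pools 0.16), with 0.08 at its other probe. Of the renin gene's regulators *Crebbp* (0.29), *Ep300* (0.24) and *Rbpj* (0.22) rose by adjusted P, and the *WT* pools gave 0.22, 0.23 and 0.21. A further *Ep300* probe, not well above background in *Mut*, gave -0.03. In these 5 genes the ratio between *WT* pools was close to that between genotypes.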

How the data were processed

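RNA of sorted cells was hybridized by the authors to 4 dual-colour Agilent arrays on 1 slide with 1 scan. The deposited intensity of each spot, in both channels with its local background, came from Agilent Feature Extraction 10.7.3.1 (per the file headers), not yet normalized. The deposited log10 ratio of red to green is the program's own, with background subtracted and dyes normalized, and a series table held the same values (180072 of 180072 within 1e-06). The deposited program flags gave detection. The values the authors computed in GeneSpring were not used here.

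Median signals were corrected by normexp (offset 50) and normalized by loess within arrays. Ratios were turned to Cy3/Cy5 on the log2 scale and outlier spots left out. Levels are log2 signals after Aquantile normalization. Ratios of arrays 1 to 3 were tested against 0 with limma 3.58.1 in R 4.3.3 and Benjamini-Hochberg adjustment over 41166 probes, after a test on simulated data. Levels of different probes were compared only to choose a gene's brightest probe, and added only in the marker sums. The pools on an array deviated together from their group means (Pearson correlation over probes 0.388, 0.431 and 0.32), as the array pairs them. The replicates are the arrays, and limma draws the spread of each probe towards that of the others. The single slide left no batch to test.

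Symbols came from the accessions through a RefSeq table (GRCm38.p6), used for names only, and matched 22951 probes. *Cma2*, *Mrgprd*, *Mtus1* and *Zbtb16* among pathway genes and *Lrp2*, *Cubn*, *Csf1r* and *Cd68* among the markers had no probe under that symbol. The results of 2 genes of these lists are not reported here. The summed levels of the other marker lists are given with the closing observations. Named are all probes of the 9 members, the genes of a pathway list that were called, up to 3 others of it with the smallest adjusted P, and the 3 probes most like *Atp6ap2* and *Ren1* over the channels. The members, lists and tests were chosen with earlier results of these data known. Alternatives changed the values, background, centring, outliers, dim probes, dye term, pairing, test, fold minimum and each replicate. No probe sequences or coordinates were used here.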

Additional observations from a re-analysis of the deposited data

How the results depend on the processing

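Member probes called stayed at 0 of 13 under the alternatives tried, except that with no fold minimum 2 were called and that only 4 passed the filter on dim probes, of which 0 were called. *Enpep* kept its direction in all 13 alternatives (0.28 to 1.08, adjusted P under 0.05 in 8), and *Atp6ap2* in all but the dye term (-0.61 to 0.02, adjusted P under 0.05 in 5). Over the array 827 calls became 2705 with deposited ratios, 323 with the dye term, 12187 without a fold minimum, and 0 with an offset of 0 in normexp, median centring or the methods' test with adjustment, which at an unadjusted P and the same fold counted 691 probes and 0 members. Lower calls went from 600 to 390 without array 1 and 917 without array 3.

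Signs of log2 *Mut*/*WT* turned as follows, mostly for values near 0 but also for *Furin*, *Agtrap*, *Ep300* and *Rbpj*, and the cause was not tested. With deposited ratios *Ace* A_52_P68028 gave 0.0429, *Agtr1b* -0.37 and *Mas1* A_52_P655278 0.0817, and with offset 0 this *Ace* probe 0.0392 and this *Mas1* probe 0.0186. Without background correction *Agt* gave 0.0192 and that *Mas1* probe 0.0474. With median centring *Agt* gave 0.0922, the same *Ace* probe 0.0983, *Agtr2* -0.0619 and the same *Mas1* probe 0.12, and of pathway genes *Agtrap* -0.29, *Furin* -0.0636, *Rbpj* -0.16 and *Ep300* -0.0241. With the dye term the *Ren1* probes gave -0.0049 and -0.21, *Ace* A_52_P72297 -0.0491, the *Agtr1a* probes 0.20 and -0.0400, *Mas1* A_51_P152623 -0.0429, *Atp6ap2* 0.0168 and *Grk5* -0.0064. Leaving out 1 array gave -0.0519 to 0.0596 for *Ace* A_52_P68028, -0.0077 to 0.0483 for *Ace* A_52_P72297, -0.0136 to 0.12 for *Agtr1b*, -0.0212 to 0.14 for *Agtr2* and -0.0710 to 0.0161 for *Mas1* A_52_P655278.

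The settings for pathway genes, apart from the median over probes, were chosen after seeing the data. The *Atp6ap1* call was lost with deposited ratios (-0.82), offset 0 (-0.80), median centring (-1.27), the dye term (-0.67) and the methods' test (-0.73). Deposited ratios called *Anpep* (0.71) and *Furin* (0.65), and *Fzd8* lower and *Cma1* higher, each well above background in 1 genotype at most. The median over probes called 1 peptidase gene, *Ctsd* (-0.59, against -0.23 at its brightest probe), which the naming rule did not cover. Without the replicate block (unpaired channels) 824 probes were called and the values of *Atp6ap2* (-0.17, adjusted P = 0.0939, limma) and *Enpep* (0.49, adjusted P = 0.00346) were as in the paired test, which only *Atp6ap2* then failed. The number of spots near background limits every statement on *Ren1*, *Agt*, *Ace*, *Agtr1a*, *Agtr1b* and *Mas1*.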

Other observations

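The levels of *Atp6ap2* over the 8 channels were most like those of *Pip4p2* (Pearson r 0.972), *Tmem167* (0.966) and *Klhl9* (0.965), among 12510 probes well above background in all channels. For *Ren1* A_51_P316661 the nearest were *Tspan6* (0.963), *Mea1* (0.961) and *Ccdc68* (0.960). These are descriptions over 8 readings of 6 pools that share arrays and dyes. Among the 3 detected members r was 0.57 for *Agtr2* with *Enpep*, -0.18 for *Agtr2* with *Atp6ap2* and -0.45 for *Enpep* with *Atp6ap2*.

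Summed marker levels (log2) for nephron progenitors were 14.87 to 14.95 in *WT* and 14.71 to 14.81 in *Mut*, with 14.89 (*WT* pool 1) and 14.78 (*WT* pool 2) on array 4. The brightest of these 12 markers, *Crym* (13.97 in *WT*), weighs most in the sum. Its log2 *Mut*/*WT* was -0.28, beside -0.26 between the *WT* pools, and -0.02 with the dye term. By adjusted P alone 2 of the 12 rose and 6 fell (13.2% and 16.4% of all probes), and 0 were called at 1.5-fold. For endothelium they were 9.22 to 9.27 in *WT* and 9.18 to 9.21 in *Mut*, for ureteric bud 9.12 to 9.16 and 9.09 to 9.14, for proximal tubule and podocytes 8.62 to 8.76 and 8.62 to 8.65, and for macrophages and mast cells 8.33 to 8.40 and 8.40 to 8.46. On array 4 *WT* pools 1 and 2 gave 9.17 and 9.19 for endothelium, at the *Mut* level. They gave 9.14 and 9.13 for ureteric bud and 8.74 and 8.65 for proximal tubule and podocytes. For macrophages and mast cells both gave 8.38. Of the 6 endothelial markers, 3 were well above background in no channel of arrays 1 to 3.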
